A study of Mus musculus with 28 samples.

Results

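The response of mouse CD4+ T cells to 4 h of interleukin-2 (IL-2) was read from a pair of RNA sequencing libraries, one from cells treated with IL-2 for 4 h and one from cells given no cytokine. Both were taken by their labels, and they are 2 of the 9 RNA libraries in a series of 28 samples. All 9 came from spleen of wild type C57BL/6 mice, as CD4+ T cells that had been activated in culture for 3 days on plate-bound anti-CD3 (2 µg/ml) with anti-CD28 (1 µg/ml) and then rested overnight, so the cells without cytokine had also been stimulated through the T cell receptor. The other RNA libraries came from cells given IL-2 for 0.5, 2 or 24 h or interleukin-21 (IL-21) at those times or for 4 h, and the 19 chromatin immunoprecipitation samples were not used here. The labels state a cytokine dose for the chromatin cultures only. They do not give the age or sex of the mice, how many were pooled, or whether libraries came from separate animals. Cells kept for 4 h without cytokine were not analysed here, so IL-2 and the time in culture cannot be told apart where 4 h of IL-2 is set against no cytokine.

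IL-2 is the growth factor of activated T cells. It binds a receptor made of an alpha chain (Il2ra, CD25), a beta chain (Il2rb) and the common gamma chain (Il2rg), and the kinases JAK1 and JAK3 bound to the beta and gamma chains phosphorylate STAT5, which enters the nucleus and binds DNA at the letters TTCNNNGAA. The same receptor feeds the PI3 kinase, mTOR and MAP kinase pathways, which drive growth in cell size, and the response is limited by feedback inhibitors of the SOCS family. IL-21 uses the common gamma chain with its own receptor chain and signals mainly through STAT3.

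The library from cells with 4 h of IL-2 held 40.4 M reads and the one without cytokine 34.4 M, within the range of 29.5 to 44.3 M over the 9. Levels are the authors' RPKM values (reads per kilobase of transcript, scaled to the library's total), which compare genes per length. A difference is log2(RPKM + 1) with 4 h of IL-2 minus log2(RPKM + 1) without cytokine, and genes were counted from a difference of 1, that is 2-fold after adding 1 RPKM. Brackets after a ratio of RPKM hold its exact 95% counting interval, which covers counting error only, since several reads can stem from 1 molecule when no molecular identifiers mark them. With 1 library on each side no difference could be checked against replicates, and no test was made. The files do not say whether counting used strand, so reads of overlapping genes on opposite strands may be mixed.

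The cells carried their labelled identity in both libraries. Cd4 was at 114 RPKM with 4 h of IL-2 and 207 RPKM without cytokine, and Cd3e, a chain of the T cell receptor complex, at 144 and 194 RPKM. Cd8a stood at 1.08 RPKM with IL-2 and 0.548 RPKM without, and Cd8b1 at 6.43 and 9.18 RPKM. B cell markers were detected in both libraries, with a summed level over 10 markers of 48.6 RPKM with IL-2 and 57.4 RPKM without; 9 of them passed the filter on low values, 0 were counted in either direction, and Cd79b had the widest difference (8.80 and 16.5 RPKM, -0.84). The 9 macrophage markers in the files summed to 6.11 RPKM with IL-2 and 10.1 RPKM without, with 4 passing the filter and 0 counted. The 6 dendritic cell markers summed to 1.32 and 2.28 RPKM. The 5 erythroid markers summed to 1.24 RPKM with IL-2 and 2.78 RPKM without, and 1 of them, Alas2, had 0 reads in both libraries. The 7 NK cell markers summed to 152 and 194 RPKM, most of it from Gzma (149 and 191 RPKM). In each of these last 2 lists 2 markers passed the filter and 0 were counted. In RNA from a mixed culture, fewer cells of a type and less RNA per cell cannot be told apart, and the part of these markers in the differences below was not tested.

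Of 11048 genes tested, 594 were higher by 2-fold or more with 4 h of IL-2 (5.38%) and 364 at or over 2-fold lower (3.29%), and these shares are the background for every count that follows. The median difference was 0.01, with the 5th percentile at -0.88 and the 95th at 1.03. At 4-fold, 57 genes were higher and 14 lower. The median level of the genes higher with IL-2 was 21.5 RPKM with IL-2 and 7.02 RPKM without cytokine, and that of the lower genes 5.85 and 16.7 RPKM, beside 10.4 and 9.56 RPKM for all genes tested. The excess of higher over lower genes depended on scaling. It was 62.0% of the 958 counted genes with the authors' totals and 51.1% with upper quartile scaling, which gave 486 higher and 465 lower. By level, the share of higher genes was 7.08% among genes averaging 20 to 100 RPKM and 3.94% among those at 100 RPKM or more, where more genes were lower (5.13%).

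**Figure D1:**
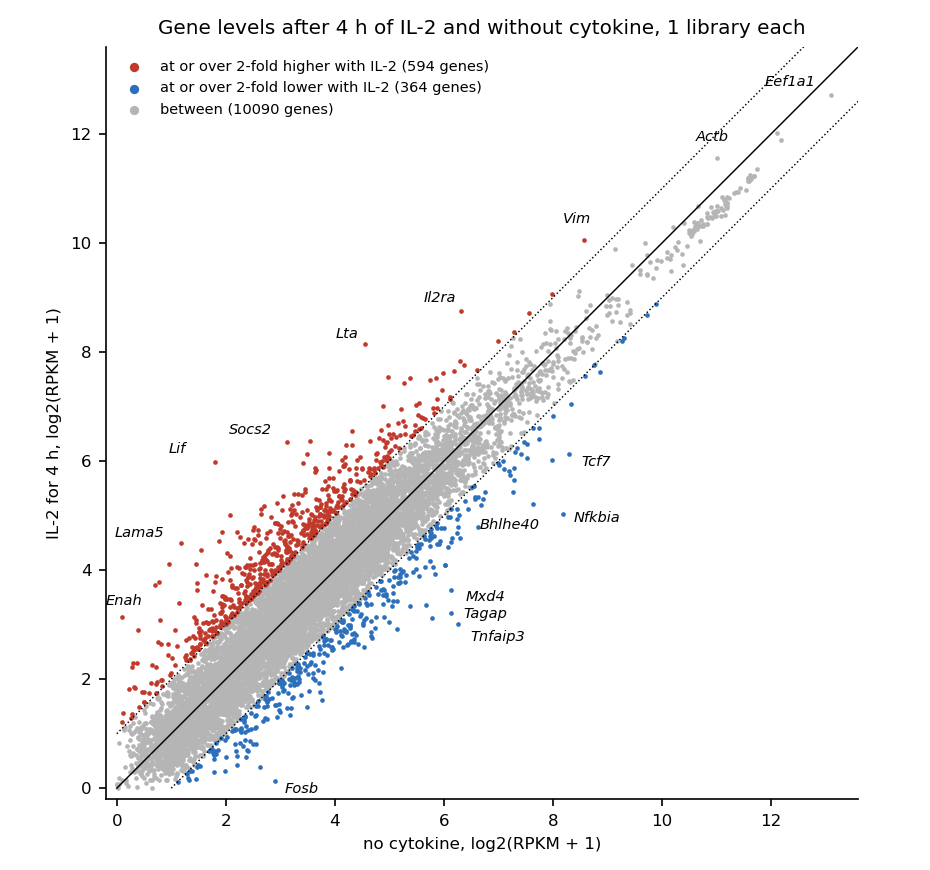
Level of each of the 11048 genes in the library with 4 h of IL-2 (y axis) against the library without cytokine (x axis), both as log2(RPKM + 1), 1 point per gene and 1 library per axis. The 594 genes higher by 2-fold or more with IL-2 are red, the 364 lower ones blue, and dotted lines mark 2-fold; Lif and Lta lie farthest above the diagonal, Tnfaip3 and Nfkbia farthest below.

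The receptor for IL-2 itself differed chain by chain. Il2ra (NM_008367, on chromosome 2, plus strand, build mm9), the alpha chain that turns a receptor of intermediate affinity into one of high affinity, was at 433 RPKM (77546 reads) with 4 h of IL-2 and at 78.5 RPKM (11941 reads) without cytokine, a ratio of 5.52 (5.42 to 5.63). It was also the fourth largest gain in RPKM of all genes. The library with 4 h of IL-21 held 187 RPKM of Il2ra, also above its level without cytokine. For this gene 4 h of IL-2 over 4 h of IL-21 gave a ratio of 2.32 (2.29 to 2.35). Il2rb, the beta chain, was at 300.3 and 169 RPKM, a ratio of 1.78 (1.75 to 1.82) that stays under 2-fold. Il2rg, the common gamma chain, was at 236 RPKM with IL-2 and 322 RPKM without. The alpha chain thus stood above the gamma chain with IL-2 and below it without. Il7r, the receptor alpha chain for the survival cytokine IL-7, was lower, at 69.4 and 169.7 RPKM, a ratio of 0.409 (0.399 to 0.419). Of 8 common gamma chain family receptors tested, Il2ra alone was counted higher and Il7r alone lower, with a median of 0.28 beside 0.01 for all genes; Il4ra was at 156 and 113 RPKM, Il21r at 82.2 and 66.4 RPKM and Il15ra at 11.8 and 9.72 RPKM.

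Of 11 Janus kinase and STAT genes under the receptor 0 were counted higher and 1 lower, and 10 had a negative difference (median -0.35). Jak1 was at 70.6 RPKM with 4 h of IL-2 and 107 RPKM without, Jak3 at 63.6 and 81.1 RPKM, Stat5a at 31.9 and 35.0 RPKM, and Stat5b at 34.6 and 45.1 RPKM. The counted gene was Stat4, which carries signals of IL-12, at 17.0 and 52.7 RPKM (-1.58). Jak2, at 42.5 and 79.6 RPKM, came closest to it (-0.89). In the library with 4 h of IL-21, Stat4 was at 23.1 RPKM, also below its level without cytokine, Stat5a at 64.8 RPKM and Jak2 at 82.3 RPKM.

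Feedback inhibitors separated into a few high genes and a quiet remainder. Socs2 (NM_001168657, minus strand of chromosome 10) had the fourth largest positive difference of all genes, with 80.7 RPKM (6763 reads) after 4 h of IL-2 and 7.73 RPKM (551 reads) without cytokine, a ratio of 10.4 (9.57 to 11.4). Socs1, which binds and blocks Janus kinases, was at 195 and 62.0 RPKM, a ratio of 3.14 (3.01 to 3.28). Socs3 was at 63.6 and 26.1 RPKM, a ratio of 2.44 (2.33 to 2.56), and the IL-21 library of the same time held 311 RPKM of it. Cish, a STAT5-induced inhibitor that was already at 149 RPKM without cytokine, was at 207 RPKM with IL-2 (0.47). Over time Cish stood at 149 RPKM without cytokine, 336 at 0.5 h, 223 at 2 h, 207 at 4 h and 146 at 24 h of IL-2, so its highest library came before 4 h. Of 16 genes of SOCS, PIAS and phosphatase inhibitors, 3 were counted higher and 0 lower. Their median was 0.02, and -0.06 with upper quartile scaling, so the sign of the list's median depends on the scaling.

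The DNA letters to which STAT5 binds were looked for in the promoters of the genes that differed. RefSeq (GRCm38.p6) gives windows of 300 bases, from 250 before to 50 after a gene's start, and 8867 of the genes tested have one. TTCNNNGAA, which reads the same on both strands, was in 10.3% of 574 windows of genes higher with IL-2, in 8.38% of 382 windows of genes lower with IL-2, and in 7.07% of 11231 windows of all genes tested. The windows of Lta, the gene of lymphotoxin alpha, and of Socs3 are shown as a cytokine gene and a feedback gene that were higher with IL-2 and hold the letters. They were chosen after the values were seen, capitals mark TTCNNNGAA, and positions count from the 5′ end of the window. The Lta window, on the minus strand at chr17:35205302-35205601, holds it at bases 99 to 107 and again at 235 to 243, and the Socs3 window, on the minus strand at chr11:117969317-117969616, at 97 to 105.
Lta: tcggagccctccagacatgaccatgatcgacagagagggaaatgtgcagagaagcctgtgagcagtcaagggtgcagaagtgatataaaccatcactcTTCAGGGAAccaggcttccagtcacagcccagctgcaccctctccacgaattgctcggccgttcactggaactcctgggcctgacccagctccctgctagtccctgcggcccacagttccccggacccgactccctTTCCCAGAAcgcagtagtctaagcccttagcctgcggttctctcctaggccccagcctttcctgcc
Socs3: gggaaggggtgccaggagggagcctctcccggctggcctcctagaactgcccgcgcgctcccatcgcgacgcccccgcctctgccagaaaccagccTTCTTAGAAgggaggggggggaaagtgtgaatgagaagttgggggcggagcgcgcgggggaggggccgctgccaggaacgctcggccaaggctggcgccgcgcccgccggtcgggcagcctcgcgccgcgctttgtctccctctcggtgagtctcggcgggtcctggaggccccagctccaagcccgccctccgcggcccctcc
A match is a description of the letters and shows no binding.

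Cytokine genes held the largest single differences. Lif (NM_001039537, plus strand of chromosome 11), an IL-6 family cytokine, led all genes with 62.5 RPKM (9598 reads) after 4 h of IL-2 and 2.48 RPKM (324 reads) without cytokine, a ratio of 25.2 (22.6 to 28.2) and a difference of 4.19. Lta (NM_010735, minus strand of chromosome 17) was at 283 RPKM (15807 reads) and 22.4 RPKM (1063 reads), a ratio of 12.6 (11.9 to 13.5). Osm, oncostatin M, a relative of Lif on the same chromosome, was at 69.0 and 10.2 RPKM, a ratio of 6.79 (6.26 to 7.36). Both IL-6 family members were thus among the 15 genes with the largest positive differences, together with Lta, Il24 and Il13. Il24, of the IL-10 family, was at 16.4 and 0.938 RPKM (3.16), on 738 and 36 reads.

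The type 2 cytokine Il13 was at 24.9 RPKM with 4 h of IL-2 and 2.80 RPKM without (2.77), and its neighbour in function Il4 at 16.3 and 5.97 RPKM (1.31). Il5, of the same type, stayed under the count at 1.11 and 0.0948 RPKM (0.95), where adding 1 RPKM hides most of a ratio of 11.7 (4.79 to 37.3) on 69 and 5 reads. The type 1 cytokines were higher as well. Ifng, interferon gamma, was at 5.39 and 0.699 RPKM (1.91), and Tnf at 31.3 and 10.9 RPKM (1.44). Il10, an inhibitory cytokine, was at 9.19 and 3.79 RPKM (1.09) and Tnfsf11, the RANK ligand, at 6.54 and 2.26 RPKM (1.21). In all, 10 of 23 cytokine genes were counted higher (43.5%, against 5.38% of all genes tested) and 0 lower, with a median of 0.68. A pseudocount of 5 RPKM leaves 6 of the 10, and Il16 is counted lower under TMM and upper quartile scaling. Il4, at 0.95 with that pseudocount, is among those lost. Its level was read from a transcript of 604 bases that RefSeq lists as non-coding, on 397 and 124 reads. Members that differed little or lay below were Ltb (334 and 340.2 RPKM), Il21 (12.2 and 14.6 RPKM), Ebi3 (17.4 and 32.3 RPKM) and Il16 (32.3 and 65.0 RPKM, -0.99). Il2 itself was near the limit of detection, at 0.105 RPKM with IL-2 and 0.556 RPKM without.

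Chemokine ligand genes were divided. Ccl4 was at 2.96 RPKM with 4 h of IL-2 and 0.749 RPKM without, and Ccl3 at 2.66 and 0.773 RPKM, both counted higher, though Ccl3 drops out at 0.99 under upper quartile scaling. Cxcl10, which draws CXCR3-bearing cells and is induced by interferon, was at 0.315 RPKM (14 reads) with IL-2 and 5.18 RPKM (196 reads) without, a difference of -2.23. The ligands with the higher levels were Ccl5, at 42.8 and 65.0 RPKM, and Ccl22, at 18.5 and 18.7 RPKM. Of 7 ligands tested 2 were higher and 1 lower, and with a pseudocount of 5 RPKM 0 were counted in either direction.

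The remaining genes among the 15 with the largest positive differences came from several functions. Lama5 (minus strand of chromosome 2), a laminin chain of the basement membrane, was at 21.7 RPKM with 4 h of IL-2 and 1.26 RPKM without, a ratio of 17.2 (15.7 to 18.8). Enah, an actin regulator, was at 7.78 RPKM (1096 reads) with IL-2 and 0.0667 RPKM (8 reads) without, a ratio of 117 (58.9 to 271). Myo6, an unconventional myosin, was at 12.8 and 0.717 RPKM, a ratio of 17.9 (15.5 to 20.8). Car12, a membrane carbonic anhydrase, was at 12.2 and 0.634 RPKM (3.01). These 4 genes were almost silent without cytokine, at or under 1.26 RPKM. Mir17hg, the host transcript of a microRNA cluster, was at 31.1 and 3.22 RPKM (2.93), and Akr1c18, an enzyme that inactivates progesterone, at 19.8 and 1.91 RPKM (2.84). Srm, spermidine synthase of the polyamine pathway, was at 81.4 and 10.6 RPKM, a ratio of 7.67 (6.98 to 8.45). Dctd, which makes a precursor of thymidine nucleotides, was at 16.4 and 1.72 RPKM (2.68), and Naf1, an assembly factor for small nucleolar ribonucleoproteins, at 22.1 and 2.68 RPKM (2.65).

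**Figure D2:**
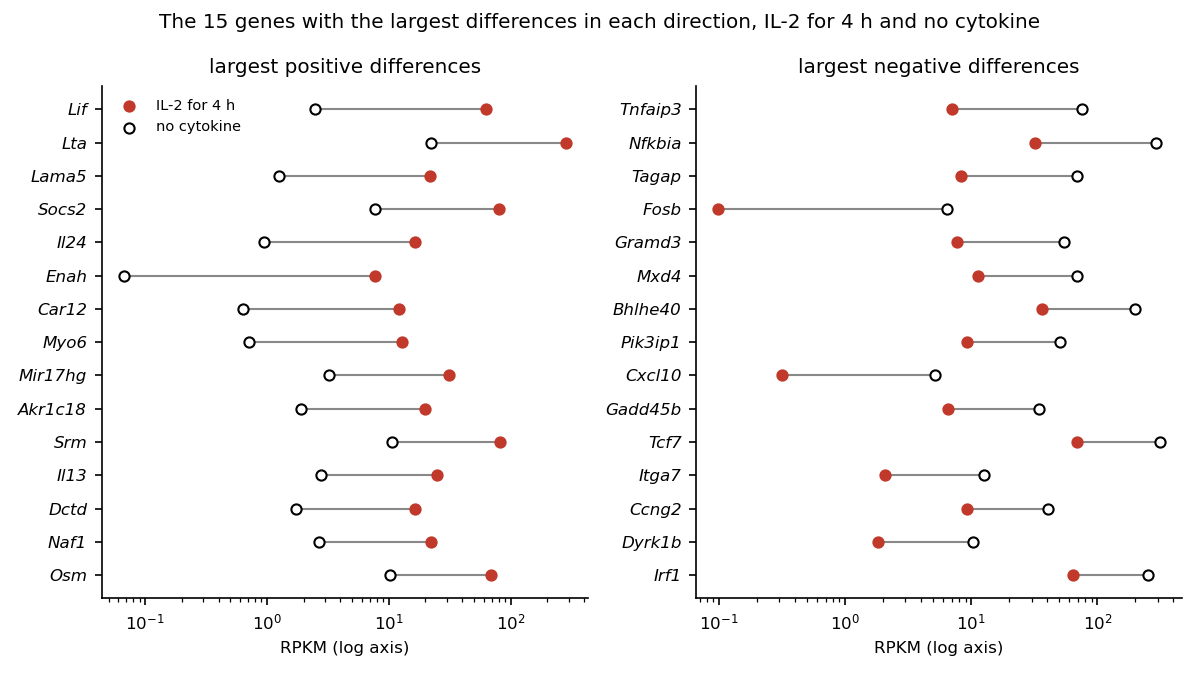
RPKM (log axis) of the 15 genes with the largest positive (left) and the 15 with the largest negative (right) log2(RPKM + 1) difference; filled points are the library with 4 h of IL-2, open points the library without cytokine, 1 library each. Lif lies at 62.5 and 2.48 RPKM and Tnfaip3 at 7.08 and 75.6 RPKM.

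Genes that build ribosomes were higher as a block. Of 52 genes of ribosome biogenesis and RNA polymerase I, 37 were counted higher with 4 h of IL-2 (71.2%, against 5.38% of all genes tested), 0 lower, and 49 had a positive difference, with a median of 1.62. Polr1b, a core subunit of RNA polymerase I, which transcribes ribosomal RNA, was at 23.3 RPKM with IL-2 and 3.77 RPKM without, a ratio of 6.18 (5.63 to 6.78). Among processing factors of the small subunit, Rrp12 was at 19.0 and 3.08 RPKM and Heatr1 at 28.1 and 6.51 RPKM. Among nucleolar proteins, Gnl3 was at 69.9 and 14.0 RPKM, Nolc1 at 54.9 and 11.4 RPKM, and Nop56 at 171 and 37.7 RPKM. The abundant nucleolar genes stood nearer their level without cytokine: Fbl, fibrillarin, was at 110.0 and 48.0 RPKM (1.18), Ncl, nucleolin, at 149 and 92.2 RPKM (0.68), and Npm1, nucleophosmin, at 876 and 853 RPKM (0.04). Polr1d, Polr1c and Znrd1, the remaining members with differences below 0, are polymerase subunits, at -0.09, -0.31 and -0.36.

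The proteins of the ribosome itself did not follow. All 40 cytosolic ribosomal protein genes on the list had a negative difference, from -0.59 for Rps14 to -0.21 for Rpl11, with a median of -0.38 and 0 counted. Together they summed to 58582 RPKM with 4 h of IL-2 and 76352 RPKM without. Eef1a1, the elongation factor that brings transfer RNA to the ribosome, was the gene with the largest loss in RPKM, at 6759 and 8808 RPKM, followed by Rpl41, Tpt1, Gm9846 and Rps27. Rps27 and the entry Gm9846 had the same 33728 and 39287 reads, so their reads cannot be assigned to one or the other. RPKM is a share of a library's reads. The largest gains were in the structural genes Actb (3042 and 2053 RPKM) and Vim (1071 and 378 RPKM), then Ptma, Il2ra and Eif5a.

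CACGTG, the E-box bound by MYC, was in 18.1% of windows of genes higher with 4 h of IL-2, in 7.33% of windows of genes lower, and in 10.2% of windows of all genes tested. The medians of the windows' G and C content were 61.7%, 59.3% and 60.7% in the same order. On the ribosome biogenesis list 19.6% of 56 windows from 46 genes held it, those of Grwd1, Ltv1, Mybbp1a, Nle1, Nop2, Pes1, Rrn3, Tsr1, Utp18, Utp20 and Wdr43. The windows of Nop2 (57.4 and 11.5 RPKM), a ribosomal RNA methyltransferase, and Mybbp1a (93.9 and 27.7 RPKM), a nucleolar protein, are shown because both were counted higher and hold the letters, which are in capitals and read the same on both strands. The Nop2 window is on the plus strand at chr6:125131633-125131932, with CACGTG at bases 191 to 196, and the Mybbp1a window on the plus strand at chr11:72441077-72441376, with CACGTG at 291 to 296.
Nop2: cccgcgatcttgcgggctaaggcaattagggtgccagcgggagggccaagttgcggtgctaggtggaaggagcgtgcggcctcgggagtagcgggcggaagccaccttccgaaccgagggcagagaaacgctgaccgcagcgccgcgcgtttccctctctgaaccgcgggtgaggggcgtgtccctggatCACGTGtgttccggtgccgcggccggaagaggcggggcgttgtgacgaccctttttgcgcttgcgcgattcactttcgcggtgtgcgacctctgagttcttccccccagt
Mybbp1a: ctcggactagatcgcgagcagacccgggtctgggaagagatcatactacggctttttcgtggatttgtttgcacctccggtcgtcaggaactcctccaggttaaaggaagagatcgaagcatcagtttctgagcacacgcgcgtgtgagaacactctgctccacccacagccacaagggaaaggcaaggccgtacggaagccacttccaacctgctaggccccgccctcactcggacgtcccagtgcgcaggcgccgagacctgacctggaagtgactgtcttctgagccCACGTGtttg
The match lies before the start in Nop2 and after it in Mybbp1a, and TTCNNNGAA and CACGTG overlapped in 0 of the 11231 windows.

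The MYC gene and its partners differed less than the growth genes. Myc was at 107 RPKM with 4 h of IL-2 and 65.1 RPKM without, a ratio of 1.64 (1.59 to 1.70), and Max, its dimer partner, at 42.0 and 26.0 RPKM. Over time Myc stood at 65.1 RPKM without cytokine, 269 at 0.5 h, 107 at 2 h, 107 at 4 h and 93.6 at 24 h of IL-2. MXD proteins compete with MYC for MAX and repress transcription, and the widest differences of the network were in 2 of their genes. Mxd4 was at 11.4 and 68.9 RPKM (-2.50), among the 15 largest negative differences, and Mxd1 at 5.40 and 18.7 RPKM (-1.62). Mxd3 stayed under the count, at 10.1 and 18.5 RPKM (-0.81), and Mxi1 was at 12.7 and 9.94 RPKM (0.33). Of 11 network genes 0 were counted higher and 2, Mxd4 and Mxd1, lower, with a median of 0.33.

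Other parts of the protein-making machinery held fewer counted genes. Among 20 cytosolic aminoacyl-tRNA synthetases 5 were counted higher and 0 lower (median 0.67), led by Mars (26.4 and 9.99 RPKM) and Tars (40.0 and 15.8 RPKM). Among 23 initiation factors 7 were higher and 0 lower (median 0.56), led by Eif1a (34.9 and 12.2 RPKM) and the cap-binding protein Eif4e (33.5 and 11.7 RPKM). Chaperones followed, with 9 of 28 higher and 0 lower (median 0.64). The mitochondrial chaperonin Hspd1 was at 179 and 53.0 RPKM, Hspa9 at 115 and 45.2 RPKM, and the cytosolic Hsp90aa1 at 293 and 126 RPKM. Hspa1a and Hspa1b, heat-inducible copies too alike to separate, stood at 2.58 and 2.62 RPKM after IL-2, against 3.46 and 3.49 RPKM without.

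Enzymes that supply nucleotides and one-carbon units formed the list with the next highest median. Of 29 genes 14 were counted higher (48.3%) and 0 lower, with a median of 0.97. Shmt1, which passes a carbon from serine to folate, was at 25.0 RPKM with 4 h of IL-2 and 3.59 RPKM without, a ratio of 6.97 (6.12 to 7.97). Ctps, CTP synthase, was at 26.7 and 4.72 RPKM, and Cad, which starts pyrimidine synthesis, at 41.0 and 9.05 RPKM. The purine steps Gart (59.3 and 16.8 RPKM), Ppat (28.5 and 8.35 RPKM) and Pfas (19.0 and 6.38 RPKM) were higher too, and the serine-making enzymes Phgdh and Psat1 were at 73.0 and 31.6 RPKM and at 54.3 and 25.6 RPKM. The enzymes most tied to S phase were not among the counted ones: Rrm2 was at 61.0 and 51.6 RPKM, Tyms at 10.6 RPKM in both, and Tk1 at 21.9 and 26.9 RPKM.

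Of 16 amino acid and nutrient transporters 5 were counted higher and 0 lower, with 14 positive and 2 negative differences (median 0.74). Slc7a5, the large neutral amino acid transporter, was at 42.1 RPKM with 4 h of IL-2 and 9.90 RPKM without, Tfrc, the transferrin receptor, at 63.9 and 16.4 RPKM, and the folate carrier Slc19a1 at 19.3 and 5.12 RPKM. Of 20 genes of glycolysis and lactate transport 2 were higher and 3 lower (median -0.09). Hk2, the inducible hexokinase, was at 21.5 and 5.16 RPKM, a ratio of 4.16 (3.88 to 4.46), while the glucose transporter Slc2a3 was at 23.0 and 77.9 RPKM (-1.72) and Aldoa, aldolase, at 295 and 613 RPKM (-1.05). The other glucose transporter, Slc2a1, differed by 0.80. Among 27 genes of cholesterol and fatty acid synthesis 6 were higher and 1 lower (median 0.44); Fasn, fatty acid synthase, was at 57.2 and 21.5 RPKM, Sqle at 22.5 and 8.87 RPKM, and Scd2 at 71.3 and 157 RPKM.

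The cell cycle genes split by phase. Among 18 G1 genes 4 were counted higher and 0 lower (median 0.36). They were Cdk6 (61.2 RPKM with 4 h of IL-2 and 9.74 RPKM without, a ratio of 6.29, 5.85 to 6.77), Ccne2 (10.1 and 3.22 RPKM), and the D cyclins Ccnd3 (157 and 61.8 RPKM) and Ccnd2 (203 and 96.3 RPKM), the last with a difference of 1.07, or 0.98 under upper quartile scaling. Cdkn1b, the p27 inhibitor of these kinases, was at 20.6 and 38.2 RPKM (-0.86). Among 25 DNA replication genes 2 were counted higher and 23 had a positive difference (median 0.58); Orc1, of the origin recognition complex, was at 12.8 and 2.50 RPKM and Mcm2, of the replicative helicase, at 70.3 and 26.2 RPKM. Among 25 genes of mitosis 0 were counted and 2 had a positive difference (median -0.35), with Nusap1 at 24.2 and 45.7 RPKM and Ccnb2, cyclin B2, at 31.8 and 55.3 RPKM. At 24 h of IL-2 the same mitotic pair stood at 70.8 and 91.8 RPKM, above both libraries of this comparison.

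**Figure D3:**
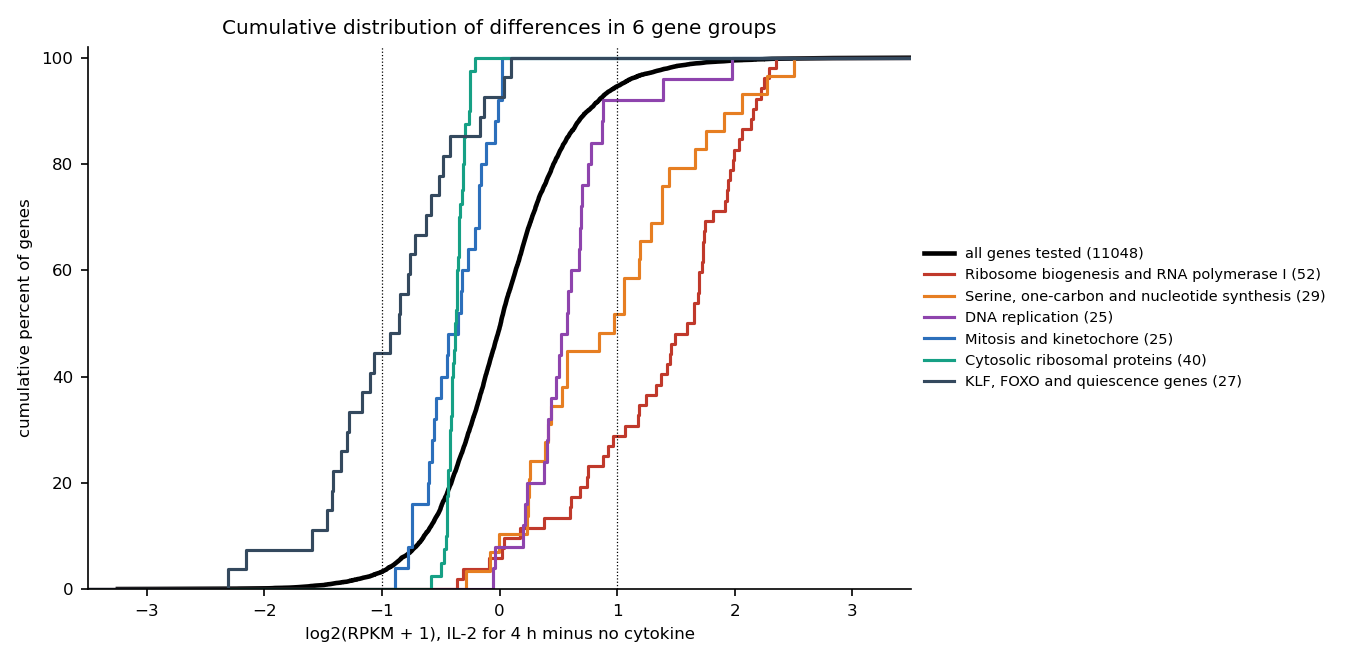
Cumulative percent of genes (y axis) by log2(RPKM + 1) difference, 4 h of IL-2 minus no cytokine (x axis), for 6 gene groups and all 11048 genes tested; dotted lines mark 2-fold and group sizes are in the legend. Ribosome biogenesis (median 1.62) and nucleotide synthesis (0.97) lie to the right of all genes, DNA replication (0.58) nearer to them, and mitosis (-0.35), ribosomal proteins (-0.38) and quiescence genes (-0.86) to the left.

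Survival genes of the BCL2 family differed in both directions. Bcl2, which blocks cell death, was at 92.9 RPKM (27043 reads) with 4 h of IL-2 and 18.9 RPKM (4675 reads) without, a ratio of 4.92 (4.77 to 5.08). Bcl2l1, its relative BCL-XL, was at 45.7 and 22.9 RPKM, just under the count at 0.97. Bcl2l11 (BIM) and Bbc3 (PUMA), which promote death, were lower, at 7.79 and 29.0 RPKM and at 7.56 and 18.8 RPKM. The third lower gene, Bcl2a1b, was at 9.59 and 20.7 RPKM and belongs to a set of near-identical copies whose split is uncertain. Bid, another death-promoting member, was counted higher at 14.7 and 6.52 RPKM, though its difference of 1.06 becomes 0.98 under upper quartile scaling. Mcl1 was at 137 and 122 RPKM. In all 2 of 16 were higher and 3 lower, and with a pseudocount of 5 RPKM 1 was higher (Bcl2) and 1 lower (Bcl2l11).

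The largest negative differences were in feedback inhibitors of NF-kappaB, the factor that T cell receptor and TNF signals activate and that induces its own inhibitors. Tnfaip3 (NM_001166402, minus strand of chromosome 10), the ubiquitin-editing enzyme A20, was at 7.08 RPKM (1240 reads) with 4 h of IL-2 and 75.6 RPKM (11269 reads) without, a ratio of 0.0936 (0.0882 to 0.0993). Nfkbia (NM_010907, minus strand of chromosome 12), the inhibitor that holds NF-kappaB in the cytoplasm, was at 31.7 RPKM (2024 reads) and 292 RPKM (15838 reads), a ratio of 0.109 (0.104 to 0.114). Both genes were also lower in the library with 4 h of IL-21, at 16.9 and 45.6 RPKM, which is set against the same library without cytokine. Of 17 NF-kappaB genes 0 were counted higher and 8 lower (47.1%, against 3.29% of all genes tested), with a median of -0.79. The subunits divided: Relb was at 5.63 and 19.4 RPKM, Nfkb2 at 22.6 and 51.9 RPKM and Rel at 3.97 and 10.8 RPKM, all counted lower, while Nfkb1 was at 99.2 and 93.6 RPKM and Rela at 33.3 and 45.6 RPKM. Nfkbie (6.01 and 19.9 RPKM), Tnip1 (26.4 and 63.0 RPKM) and Traf1 (35.5 and 101 RPKM) complete the 8. Rel drops out at -0.82 with a pseudocount of 5 RPKM.

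A form of the NF-kappaB site, GGG followed by 2 bases of any kind and TTTCC, searched on both strands, was in 1.05% of windows of genes higher with 4 h of IL-2, in 3.4% of windows of genes lower and in 1.65% of windows of all genes tested. These letters were picked after the list's values were seen. The NF-kappaB list has 19 windows from 14 genes, and 7 of the 19 windows (36.8%) held these letters, those of Cyld, Nfkb2, Nfkbia, Rel and Tnfaip3. The windows of the genes with the lowest differences are shown, with the letters, here on the opposite strand, in capitals. The Nfkbia window is on the minus strand at chr12:55492598-55492897, with the match at bases 222 to 231, and the Tnfaip3 window on the minus strand at chr10:19015361-19015660, with the match at 239 to 248.
Nfkbia: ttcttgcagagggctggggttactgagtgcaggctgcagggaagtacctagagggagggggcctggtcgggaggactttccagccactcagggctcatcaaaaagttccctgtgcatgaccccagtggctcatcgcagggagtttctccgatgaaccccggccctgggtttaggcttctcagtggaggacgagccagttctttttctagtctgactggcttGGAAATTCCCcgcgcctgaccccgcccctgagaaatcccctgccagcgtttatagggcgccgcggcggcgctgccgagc
Tnfaip3: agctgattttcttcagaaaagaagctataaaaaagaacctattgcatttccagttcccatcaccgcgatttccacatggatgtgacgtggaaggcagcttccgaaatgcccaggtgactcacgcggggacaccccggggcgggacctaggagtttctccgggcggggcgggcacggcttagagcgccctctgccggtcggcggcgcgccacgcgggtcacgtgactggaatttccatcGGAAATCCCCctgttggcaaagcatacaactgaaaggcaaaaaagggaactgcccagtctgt
Both matches lie just before the start. The NF-kappaB letters overlapped TTCNNNGAA in 5 of the 11231 windows and in 0 of those of the genes shown here. TTCNNNGAA itself was in 26.3% of the 19 windows of the NF-kappaB list, those of Nfkb2, Nfkbid, Tnip1 and Tnip2. Over all genes tested it was in 7.07% of windows.

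Early-response genes of receptor signalling were counted in the lower direction or not at all. Of 14 AP-1 and BATF genes 0 were counted higher and 6 lower, with 7 positive and 7 negative differences (median -0.22): Fosb was at 0.0983 RPKM (15 reads) with 4 h of IL-2 and 6.43 RPKM (835 reads) without, Jun at 7.35 and 24.2 RPKM, Junb at 113 and 257 RPKM, and Batf, a partner of JUN in T cells, at 39.4 and 94.1 RPKM. Maff and Atf3 were the others, and they drop out at -0.56 and -0.64 with a pseudocount of 5 RPKM. Mafg, a small MAF protein, had the largest positive difference, at 14.4 and 7.74 RPKM (0.82). At 0.5 h of IL-2 Fosb had been at 9.17 RPKM. Of 14 EGR, NR4A and IER genes 0 were higher and 3 lower (Rgs2, Btg2 and Ier5), or 1 lower with a pseudocount of 5 RPKM, while Egr1 was at 2.26 and 5.01 RPKM and Nr4a1 at 3.92 and 3.28 RPKM. Zfp36 and Zc3h12a, whose proteins destabilise cytokine messenger RNA, were at 12.7 and 38.1 RPKM and at 6.97 and 21.9 RPKM, the 2 lower of 7 such genes.

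In T cell receptor signalling 1 of 29 genes was counted higher and 4 lower (median -0.41). Tagap (NM_145968, plus strand of chromosome 17), a RhoGTPase-activating protein of activated T cells, was at 8.23 RPKM with 4 h of IL-2 and 68.9 RPKM without, a ratio of 0.12 (0.112 to 0.128) and the third most negative difference of all genes. Ptpn22, a phosphatase that restrains the receptor, was at 31.2 and 76.4 RPKM, Cblb, a ubiquitin ligase with the same effect, at 24.8 and 53.5 RPKM, and Malt1, which links the receptor to NF-kappaB, at 23.7 and 55.5 RPKM. Cblb drops out at -0.97 with a pseudocount of 5 RPKM. The higher gene was Rasgrp1, which activates RAS, at 112 and 46.9 RPKM. The receptor chains lay between, with Cd3g at 267 and 419 RPKM. Among 23 costimulatory and checkpoint receptors 0 were higher and 5 lower (median -0.52): the activation marker Cd69 was at 16.1 and 63.6 RPKM, Cd274, PD-L1, at 13.9 and 45.6 RPKM, Tigit at 9.79 and 32.4 RPKM, and Cd5 and Cd6 at 96.0 and 213 RPKM and at 61.9 and 126 RPKM. Icos, at 87.3 and 45.8 RPKM, had the largest positive difference (0.92). Cd6 drops out at -0.97 with a pseudocount of 5 RPKM.

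Genes that mark resting cells formed the list with the lowest median. Of 27 KLF, FOXO and quiescence genes 0 were counted higher and 12 lower (44.4%, against 3.29% of all genes tested), with a median of -0.86 and 2 positive members, Satb1 and Foxp1. A pseudocount of 5 RPKM gives 7 lower. Among the 12 is Btg2, which was also counted lower on the EGR, NR4A and IER list above. Pik3ip1, an inhibitor of PI3 kinase, was at 9.32 RPKM with 4 h of IL-2 and 50.2 RPKM without, a ratio of 0.186 (0.172 to 0.200). Tcf7 (NM_009331, minus strand of chromosome 11), whose product TCF-1 is a factor of naive and memory T cells, was at 69.3 RPKM (6231 reads) and 313.02 RPKM (23929 reads), a ratio of 0.221 (0.215 to 0.228). The library with 4 h of IL-21 held 382 RPKM of Tcf7, so that 4 h of IL-2 over 4 h of IL-21 gave a ratio of 0.181 (0.176 to 0.186). Tsc22d3 (GILZ) was at 15.7 and 49.5 RPKM, the antiproliferative Btg1 at 65.5 and 183 RPKM, Txnip, which limits glucose uptake, at 131 and 323 RPKM, and Klf4, an inhibitor of lymphocyte proliferation, at 1.10 and 4.34 RPKM. The FOXO factors themselves were not counted, with Foxo1 at 32.2 and 35.4 RPKM (-0.13), Foxo3 at 10.9 and 16.1 RPKM (-0.52) and Foxo4 at 6.16 and 8.59 RPKM (-0.42). Ccng2 and Dyrk1b, both tied to exit from the cell cycle and not on the list, were among the 15 largest negative differences, at 9.19 and 40.5 RPKM and at 1.81 and 10.3 RPKM. The remaining 3 of those 15 were Gramd3 (7.70 and 54.1 RPKM, -2.66), the stress-response gene Gadd45b (6.57 and 34.3 RPKM, -2.22) and the integrin chain Itga7 (2.07 and 12.6 RPKM, -2.15).

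Of 20 chemokine and homing receptors 1 was counted higher and 5 lower (median -0.42), and with a pseudocount of 5 RPKM the lower ones were 2. Ccr4 was the higher one, at 89.5 RPKM with 4 h of IL-2 and 37.9 RPKM without. Cxcr4 was at 15.7 and 54.7 RPKM, Gpr183, which guides cells along oxysterols, at 3.29 and 10.3 RPKM, and Cxcr5, the receptor of follicular helper cells, at 2.02 and 5.06 RPKM; Itga4 and S1pr4 were the others. Ccr7, which leads cells into lymph nodes, was just short of the count at 133 and 260.2 RPKM (-0.96), and S1pr1 was at 35.0 and 36.8 RPKM.

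Among 26 T helper lineage regulators 1 was counted higher and 4 lower (median -0.15), or 2 lower with a pseudocount of 5 RPKM. Tcf7, given above, is one of the 4. Bcl6, the regulator of follicular helper cells, was at 0.482 RPKM (64 reads) with 4 h of IL-2 and 4.14 RPKM (468 reads) without, a ratio of 0.116 (0.0881 to 0.151), and at 9.20 RPKM with 4 h of IL-21. Bhlhe40, a factor of cytokine-producing helper cells, was at 36.3 and 199 RPKM (-2.42), and Ikzf3 at 45.8 and 93.5 RPKM. The regulators of other lineages stood closer: Tbx21 (T-bet) was at 10.7 and 15.3 RPKM, Gata3 at 44.6 and 55.3 RPKM, and Foxp3 at 5.93 and 4.35 RPKM. Of 16 genes of regulatory T cells 5 were higher (Il2ra, Lrrc32, Gpr83, Ikzf4 and Il10) and 1 lower (Tigit), with a median of 0.44. Ikzf4 is also the higher gene of the 26 lineage regulators, and Il2ra, Il10 and Tigit were counted on lists above. Lrrc32, which tethers latent TGF-beta at the cell surface, was at 41.1 and 8.53 RPKM. Gzmb, granzyme B, was at 421 and 187 RPKM, the counted one of 12 cytotoxic effector genes (median -0.03).

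Of 36 interferon-stimulated genes 27 had a negative difference, with 1 counted higher (Socs1), 3 lower and a median of -0.43. The lower ones were Irf1 (63.7 RPKM with 4 h of IL-2 and 252 RPKM without, -1.97), Irf7 (6.09 and 18.9 RPKM) and Rtp4 (1.13 and 4.49 RPKM). Rtp4 drops out at -0.63 with a pseudocount of 5 RPKM. Ifngr1, a chain of the interferon gamma receptor chosen here after its value was seen, was at 42.1 and 154 RPKM.

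**Figure D4:**
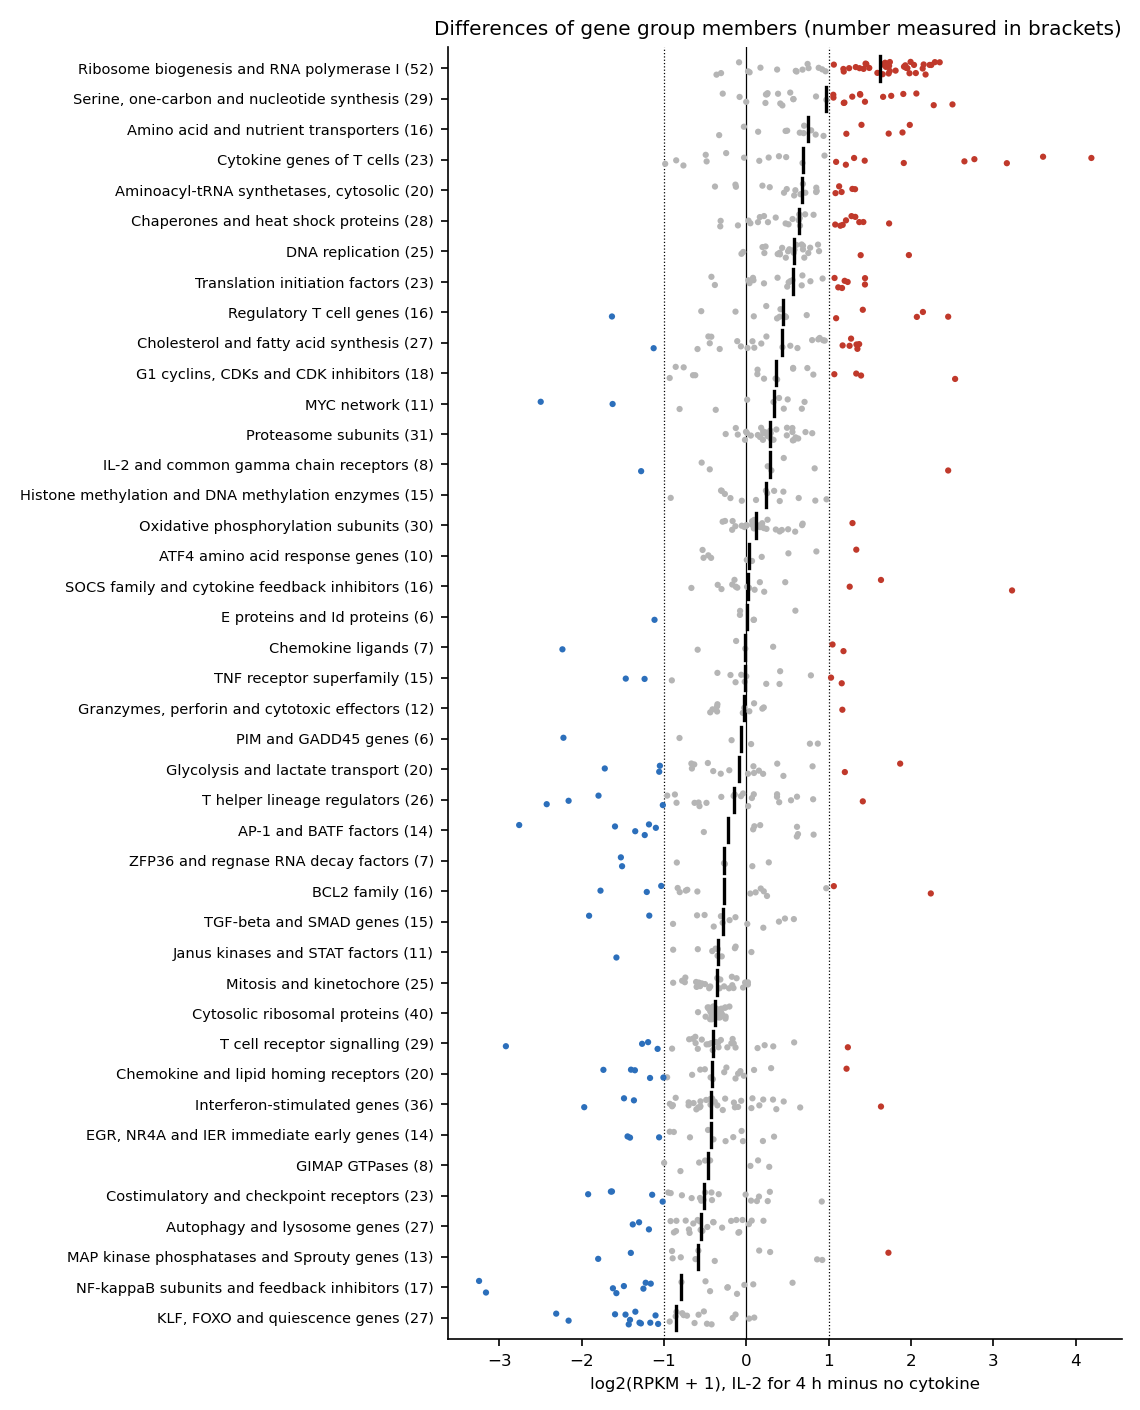
Difference in log2(RPKM + 1), 4 h of IL-2 minus no cytokine (x axis), for each measured member of 42 gene lists ordered by median (thick bar); red and blue points are members at or over 2-fold higher and lower, and list sizes are in brackets. Ribosome biogenesis is at the top with 37 of 52 members higher and the KLF, FOXO and quiescence list at the bottom with 12 of 27 lower.

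Where 4 h falls in the course of the response differed between genes. Among the 594 genes higher at 4 h, the highest of the 4 IL-2 libraries was the one at 4 h for 52.9%, the one at 24 h for 41.2%, at 2 h for 26 genes and at 0.5 h for 9; choosing genes at 4 h favours 4 h in this count. Among the 364 lower genes the lowest IL-2 library was at 24 h for 231 (63.5%), at 4 h for 117 (32.1%), at 2 h for 15 and at 0.5 h for 1. Lif stood at 2.48 RPKM without cytokine and at 58.5, 53.2, 62.5 and 78.2 RPKM after 0.5, 2, 4 and 24 h of IL-2. Polr1b stood at 3.77 RPKM without cytokine and at 3.87, 23.2, 23.3 and 13.4 RPKM over the same times. Lif was thus already high at 0.5 h, and Polr1b first at 2 h. Mcm2 came later, at 26.2 RPKM without cytokine and 27.6, 26.8, 70.3 and 112 RPKM over those times. Mxd4 was at 68.9 RPKM without cytokine and at 72.5, 31.6, 11.4 and 4.73 RPKM.

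**Figure D5:**
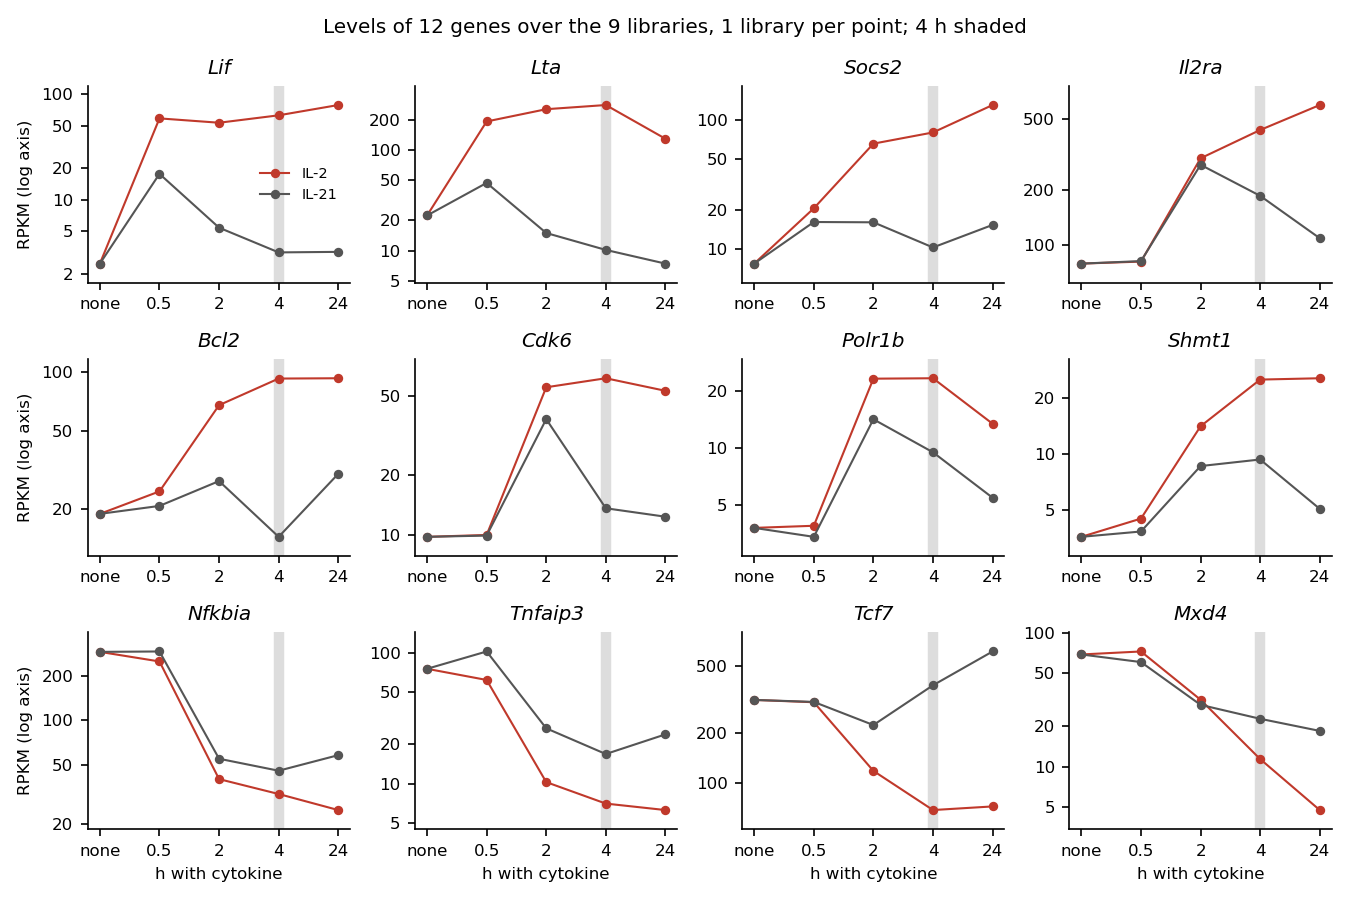
RPKM (log axis) of 12 genes in the library without cytokine (none) and after 0.5, 2, 4 and 24 h of IL-2 (red) or IL-21 (grey), 1 library per point, with 4 h shaded; the times are evenly spaced on the x axis. At 4 h Lif was at 62.5 RPKM with IL-2 and 3.17 RPKM with IL-21, and Tcf7 at 69.3 and 382 RPKM.

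Set directly against the library with 4 h of IL-21, which differs in cytokine but not in time, the ratios of genes already described ranged widely. For some the cytokines were far apart: IL-2 over IL-21 gave a ratio of 27.9 (25.6 to 30.4) for Lta, 19.7 (18.0 to 21.7) for Lif, 6.45 (6.24 to 6.67) for Bcl2, 4.51 (4.25 to 4.80) for Cdk6, 0.205 (0.200 to 0.210) for Socs3 and 0.0524 (0.0401 to 0.0674) for Bcl6. Ratios closer to 1 were 1.51 (1.46 to 1.56) for Lama5, 0.848 (0.779 to 0.923) for Tagap, 0.799 (0.768 to 0.831) for Bhlhe40, 0.808 (0.780 to 0.838) for Irf1 and 0.695 (0.656 to 0.736) for Nfkbia. Growth genes lay between, at 2.46 (2.32 to 2.62) for Polr1b, 2.00 (1.91 to 2.09) for Nop2 and 2.68 (2.47 to 2.92) for Shmt1. Each ratio compares a pair of libraries, not replicated conditions.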

How the data were processed

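Per the labels' protocols, total RNA went into a stranded library kit and was sequenced on Illumina instruments. Per the submitters' processing notes, the build was mm9 and the tools included Bowtie 0.12.9, TopHat2 2.0.11, SAMtools and HOMER; the sources used here name no counting program and no strand setting. The deposited read counts are whole numbers for each of 29543 RefSeq transcripts, per the file headers. The deposited RPKM values are those counts divided by transcript length and by 1 total per library, per the file headers, and the totals recovered from them were whole within 0.01 reads. Each of 23222 symbols took 1 transcript, the one whose mean over the 9 libraries was highest, 744 short RNA symbols were left out, and 11048 genes reaching 1 RPKM in at least 1 library were tested. A pseudocount of 1 RPKM was added before taking log2, which understates differences of low genes. Counting intervals are exact 95% conditional binomial intervals; a gene with 0 reads could still reach 3 reads, or 0.0742 RPKM per kilobase with 4 h of IL-2 and 0.0873 RPKM without cytokine. Alternatives used edgeR 4.0.16 (TMM and upper quartile scaling) and DESeq2 1.42.0 (size factors) on the counts, in R 4.3.3 and Python 3.11.15; the steps were tested on simulated data.

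The 51 gene lists and the promoter letters were chosen with earlier results of these data known. Genes are named by rule: the 15 largest differences in each direction, the 5 largest gains and losses in RPKM, and up to 6 members of each list with the widest differences, plus receptor chains, kinases, STAT5 and marker genes. Other list members are named to show a list's spread and were picked after their values were seen. Symbols were matched to RefSeq for promoters only, 11001 of 11048, and no coordinates were carried from that build to mm9.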

Additional observations from a re-analysis of the deposited data

Results flagged for a closer look

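For 5 of 11048 genes the library with 4 h of IL-2 and the library with 4 h of IL-21 lay 2-fold or more from the library without cytokine in opposite directions. Both differences use the same library without cytokine, there is 1 library per condition, and the difference between the cytokines was not tested. Lta, the lymphotoxin alpha gene, differed by 3.60 with IL-2 (283 RPKM) and by -1.07 with IL-21 (10.1 RPKM), with 22.4 RPKM without cytokine. Tnf, its neighbour in the same family, differed by 1.44 (31.3 RPKM) and by -1.09 (4.60 RPKM), with 10.9 RPKM without cytokine. Both are cytokine genes of the TNF family on chromosome 17. Il4, read from the non-coding transcript described above, differed by 1.31 with IL-2 (16.3 RPKM) and by -1.05 with IL-21 (2.37 RPKM). It was at 5.97 RPKM without cytokine. Fam46a differed by 1.14 with IL-2 (34.6 RPKM) and by -1.75 with IL-21 (3.81 RPKM), with 15.2 RPKM without cytokine. With a pseudocount of 5 RPKM the IL-2 differences of Il4 and Fam46a fall to 0.95 and 0.97, under the count. The IL-21 differences of Lta, Tnf and Il4 also fall under the count with that pseudocount, so their opposite directions at 2-fold depend on it. Malt1, which links the T cell receptor to NF-kappaB, went the other way, by -1.19 with IL-2 (23.7 RPKM) and by 1.27 with IL-21 (135 RPKM), with 55.5 RPKM without cytokine.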

How the results depend on the processing

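No paired analysis was possible because there is 1 library per condition, and none could be left out. The counts moved by over 1.5 times with the pseudocount and the threshold: a pseudocount of 5 RPKM gave 297 higher and 140 lower genes, a pseudocount of 0.1 RPKM gave 689 lower, a threshold of 1.5-fold gave 1636 and 1300, and one of 4-fold gave 57 and 14. Under TMM scaling, DESeq2 size factors, no filter, a mean of at least 5 RPKM, the longest transcript per symbol and short RNA symbols kept, the counts stayed within 1.5 times, and the median over all genes lay between -0.07 and 0.04 in every alternative. Upper quartile scaling, which shifts all differences by -0.092, turned the median of the SOCS list to -0.06, of the ATF4 list to -0.05, of the E and Id protein list to -0.08 and of the NK marker list to -0.06; TMM turned the E and Id list and the NK list to -0.01 and 0.00, and DESeq2 size factors the E and Id list to 0.00. Of 371 genes named in the text or by rule, 179 of them counted, upper quartile scaling lost 7 (Bid, Ccl3, Ccnd2, Eif5a, Iars, Psat1 and Relt) and added 8, TMM added 2 (Gimap6 and Il16), DESeq2 size factors added 1 (Gimap6), and a pseudocount of 5 RPKM lost 47. With that pseudocount the cytokine list held 6 higher genes, the cholesterol and fatty acid list 2 and the glycolysis list 1, while the quiescence list held 7 lower and the autophagy, TGF-beta and MAP kinase phosphatase lists 1 each; Spry1 was no longer counted. Low genes rest on few reads: 3 counted genes had 3 reads or fewer in 1 library.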

Other observations

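Of 27 autophagy and lysosome genes 0 were counted higher and 3 lower with 4 h of IL-2, and 24 had a negative difference (median -0.56). The cargo receptor Sqstm1 was at 55.3 RPKM with IL-2 and 146 RPKM without cytokine, the kinase Ulk1, which starts autophagy, at 6.82 and 18.3 RPKM, and Atg14 at 3.11 and 8.34 RPKM. Among 15 genes of TGF-beta signalling 2 were lower, the repressor Tgif1 (3.59 and 16.2 RPKM) and the inhibitor Smad7 (4.87 and 12.3 RPKM), with 5 positive and 10 negative differences; the receptor Tgfbr2 was at 25.2 and 47.6 RPKM and the receptor Tgfbr1 differed by 0.58. Of 8 GIMAP GTPases, which support lymphocyte survival, 0 were counted and 3 had a positive difference (median -0.47), with Gimap6, at 219 and 439 RPKM, closest to the count and Gimap8 at 66.7 and 54.9 RPKM.

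Among 13 MAP kinase phosphatase and Sprouty genes 1 was higher, Spry1 (7.79 and 1.66 RPKM), and 2 lower, Dusp10 (6.30 and 24.4 RPKM) and Dusp4 (4.90 and 14.6 RPKM). Among 15 TNF receptor family genes Tnfrsf8, CD30, was at 57.7 and 25.3 RPKM and Cd27 at 57.1 and 136 RPKM. Proteasome subunits, with 26 of 31 positive (median 0.29), and oxidative phosphorylation subunits, with 21 of 30 positive (median 0.12), held 0 and 1 counted genes; the 1 was cytochrome c, Cycs, at 42.7 and 16.9 RPKM. Among 15 enzymes of DNA and histone methylation 0 were counted (median 0.24), with Dnmt3b, a DNA methyltransferase, at 4.43 and 2.04 RPKM. Housekeeping genes were not a fixed scale here, with Gusb at 27.5 and 11.8 RPKM and Hprt at 68.2 and 45.4 RPKM. Hist1h1c, a histone gene of the nuclear and non-polyadenylated list, was at 0.761 and 4.85 RPKM, while Malat1 was at 126 and 138 RPKM.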
